A study of Mus musculus with 9 samples.

Results

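The 10 genes described here encode the enzymes that make and use S-adenosylmethionine in the liver, recycle or remove the homocysteine that is left, and supply the methyl groups for this cycle. They were taken from the table of gene expression by symbol (Mat1a, Mat2a, Gnmt, Ahcy, Bhmt, Bhmt2, Cbs, Cth, Pemt and Shmt1), and all 10 were found among its 21873 genes. Male C57BL/6 mice (9 in all, 3 in each of 3 groups) gave RNA of whole liver for sequencing. The control group received saline and the TAA group thioacetamide (TAA), a compound that injures hepatocytes and causes fibrosis, both by intraperitoneal injection for 8 weeks from an age of 8 weeks, and livers were taken 3 days after the last injection. The recovery group received TAA for 8 weeks and was then left without injections for another 8 weeks, so that these mice were older when the liver was taken, and age-matched controls were not analysed here. The labels name no transgene or deletion in any group. The comparisons ask how the fibrotic liver differs from the control liver in these genes, and how far they return once the injury stops.

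Methionine is joined to the adenosyl group of ATP by methionine adenosyltransferase to give S-adenosylmethionine, the methyl donor of most methylation reactions. In the adult liver the catalytic subunit is encoded by Mat1a, whereas Mat2a encodes the subunit used in most other tissues, in the fetal liver and in growing hepatocytes, and a change from Mat1a to Mat2a is a known feature of liver injury and liver cancer. Methyl transfer leaves S-adenosylhomocysteine, which is split to homocysteine; homocysteine is either methylated back to methionine, or passed to cysteine by transsulfuration.

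Expression was given as FPKM (fragments per kilobase and per M mapped fragments), a unit corrected for gene length, so that levels of different genes can be set side by side. FPKM were divided by 1 median-of-ratios factor per library, and these values are called scaled FPKM. The factors were 0.827 to 0.878 for control, 1.29 to 1.38 for TAA and 0.893 to 0.907 for recovery mice. Dividing by them lowered the TAA values relative to the control values by 0.64 on average (log2). A gene was called when its adjusted p was under 0.05 (limma, Benjamini-Hochberg over 14094 tested genes) and its fold change was at least 2, and "rose" and "fell" are used only for called genes. All fold changes are of log2(scaled FPKM + 0.1). The depth of a library, judged by the spacing of its smallest FPKM, was 26.8 to 40.4 M fragments per library, and the member with the fewest fragments in any library was Mat2a, with an estimated 2394. By the study's methods each library came from 1 mouse, and p values measure the spread between these mice.

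In TAA-fibrotic mice, 8 of the 10 genes fell, against 8.02% of all tested genes called lower and 17.0% called higher, and 0 rose (limma; 0 were higher at an unadjusted p under 0.05 too). The 8 were Mat1a, Gnmt, Ahcy, Bhmt, Bhmt2, Cbs, Cth and Shmt1. The median log2 fold change of the 10 was -1.72, with 0.02 over all tested genes. Of the 10, 9 had an adjusted p under 0.05 whatever the fold change (54.5% of all tested genes), the exception being Mat2a, and for the same number (9) every TAA mouse was below every control mouse (31.0% of all tested genes). In the recovery group, 7 of the 10 rose against the TAA group (7.12% of all tested genes were called higher and 14.3% lower). All 10 had an adjusted p under 0.05 in this comparison (50.5% of all tested genes), and in all 10 every recovery mouse was above every TAA mouse on the scaled values (29.4%), whereas as deposited these mice overlapped for Mat2a, Pemt and Shmt1. Both comparisons use the same TAA libraries. Whole liver was sequenced, so fewer hepatocytes and less RNA per hepatocyte cannot be told apart.

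**Figure D1:**
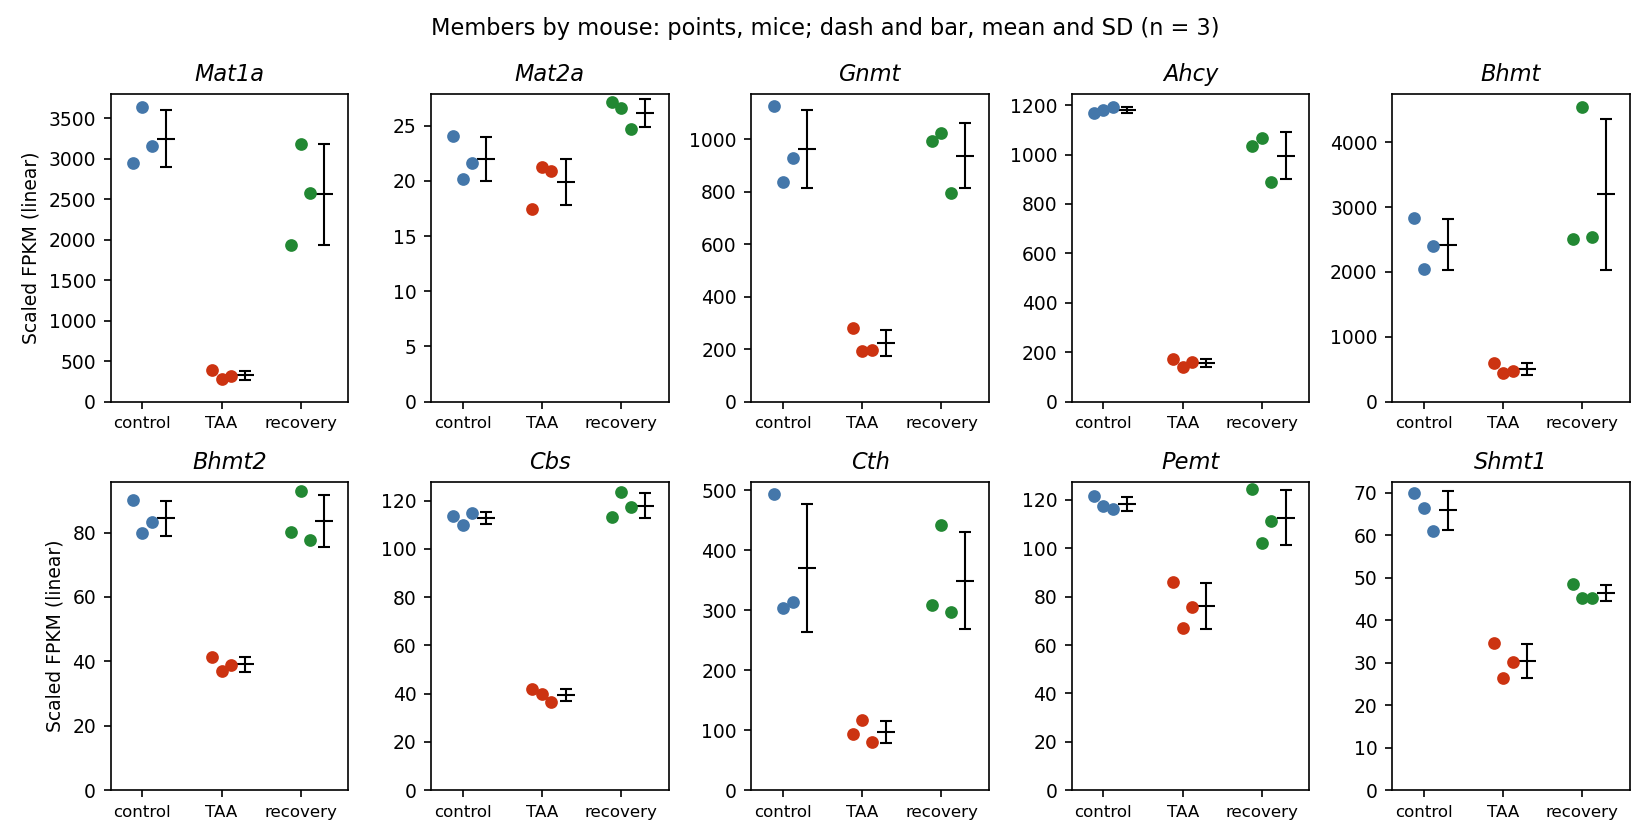
Scaled FPKM (linear axes from 0) of the 10 genes in each mouse of the control, TAA and recovery groups. Points are mice, and the dash with its bar is the mean ± SD of 3 mice. Points of the TAA group lie below those of the control group for 9 genes; for Mat2a they overlap, and this order of Mat2a and Pemt depends on the scaling (as deposited, the TAA mice are all above the control mice for Mat2a and overlap them for Pemt).

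Sequences before the start sites are shown for Mat2a, which was not called in the TAA group, and for Ahcy and Gnmt, which fell. RefSeq windows of 250 bases before to 50 after a start site (GRCm38.p6) were at hand for 8 of the 10 genes (all but Mat1a and Cth), and the 250 bases before the start are printed, 5′ to 3′ on the gene's strand. Capitals mark matches on either strand to the TATA box (TATAAA), the CCAAT box (these letters alone) and the GC box (GGGCGG), and a pair of GC box matches overlap in Mat2a.
Mat2a, chr6:72439557-72439806, minus strand: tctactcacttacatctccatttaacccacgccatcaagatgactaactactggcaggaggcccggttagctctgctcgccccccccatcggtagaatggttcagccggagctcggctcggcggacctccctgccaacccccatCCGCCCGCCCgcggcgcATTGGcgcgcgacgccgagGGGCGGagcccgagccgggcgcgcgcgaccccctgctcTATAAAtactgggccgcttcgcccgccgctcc
Ahcy, chr2:155074498-155074747, minus strand: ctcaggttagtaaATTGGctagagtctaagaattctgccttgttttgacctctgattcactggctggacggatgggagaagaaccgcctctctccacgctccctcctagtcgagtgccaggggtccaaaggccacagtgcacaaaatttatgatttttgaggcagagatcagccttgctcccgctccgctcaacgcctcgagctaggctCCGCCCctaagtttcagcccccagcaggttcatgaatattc
Gnmt, chr17:46729166-46729415, minus strand: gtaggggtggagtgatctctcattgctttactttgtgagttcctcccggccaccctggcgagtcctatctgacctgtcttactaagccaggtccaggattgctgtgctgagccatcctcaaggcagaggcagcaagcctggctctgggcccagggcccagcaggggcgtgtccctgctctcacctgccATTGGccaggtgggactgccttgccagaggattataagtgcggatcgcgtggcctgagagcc
In the window of Mat2a, the TATA box begins at position -32 from the start, the CCAAT box at -89 and GC boxes at -106, -102 and -70. Ahcy has a CCAAT box at -237 and a GC box at -41 and Gnmt has a CCAAT box at -62, with no TATA box in either. Of all 32851 windows of this length, 13.6% hold a TATA box, 37.4% a CCAAT box and 35.7% a GC box by these letters, on either strand. Over the full windows, Mat2a held 34 CpG dinucleotides, more than 92.3% of all windows, against 26 in Bhmt2, 22 in Cbs, 17 in Shmt1, 13 in Ahcy, 11 in Gnmt, 8 in Bhmt and 2 and 3 in both windows of Pemt (median of all windows 7). An E-box (CACGTG) was in the window of Cbs only, among the 8 genes, and in 7.15% of all windows. These matches describe the letters and are no evidence of binding.

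The first step of the cycle is the synthesis of S-adenosylmethionine. Mat1a (ENSMUSG00000037798, chr14:41105035-41124412, plus strand, 10 exon blocks, mm10) was the most abundant of the 10 genes in the control group. Its scaled FPKM was 2949, 3635 and 3160 in the control mice, 390, 276 and 311 in the TAA mice and 1933, 3178 and 2576 in the recovery mice. The TAA mice were thus apart from all others, and the recovery mice overlapped the control mice. Mat1a fell by 3.33 on the log2 scale in the TAA group (standard error 0.16, adjusted p = 8.17e-06, 10.04-fold), to 10.02% of the control mean, and rose by 2.96 during recovery (standard error 0.21, adjusted p = 3.33e-05). It was called in both comparisons under each of 4 scalings, and its fall was smallest, 1.95, with quantile normalization.

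Mat2a (ENSMUSG00000053907, chr6:72432799-72439558, minus strand, 8 exon blocks) had the lowest level of the 10. Its scaled FPKM was 24.1, 20.1 and 21.6 in the control mice, 17.5, 21.3 and 20.9 in the TAA mice and 27.2, 26.6 and 24.7 in the recovery mice. Control and TAA mice overlapped, and every recovery mouse lay above all of the others on this scale. Its log2 fold change between TAA and control mice was -0.14 with a 95% interval of -0.41 to 0.12 (adjusted p = 0.314). It changed sign with the scaling, to 0.49 with FPKM as deposited (adjusted p = 0.00679) and 0.18 with quantile normalization (adjusted p = 0.2503). With FPKM divided by the geometric mean of 8 hepatocyte markers (hepatocyte marker scaling) it was 0.90 (adjusted p = 7.45e-04). As deposited, Mat2a was at 19.9, 17.2 and 19.0 FPKM in the control mice, 22.5, 28.1 and 28.8 in the TAA mice and 24.4, 23.7 and 22.4 in the recovery mice. On that scale all TAA mice were above all control mice, and TAA and recovery mice overlapped. Under none of the 4 scalings did the difference reach a fold change of 2. Exons of Mat2a overlap those of Particl on the other strand over 508 bp (11.3% of the exonic length), and the library kit does not mark strand, so reads there cannot be told apart. Reads may also be shared with Gm9523, a copy of 95.2% identity over 1065 bp. Between recovery and TAA mice the log2 fold change was 0.40 (adjusted p = 0.0138), and -0.16 as deposited (adjusted p = 0.230) and -0.74 with hepatocyte marker scaling (adjusted p = 0.00111).

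The ratio of Mat1a to Mat2a within a mouse needs no scaling between libraries. It was 122, 180 and 146 in the control mice, 22.3, 12.96 and 14.8 in the TAA mice and 71.2, 120 and 104 in the recovery mice. No 2 groups overlapped, and Mat1a exceeded Mat2a at least 12.96-fold in every mouse, so that in the fibrotic livers too the transcript of the adult form was the more abundant per length. The group means were 150 ± 29.2 (SD, n = 3), 16.7 ± 4.95 and 98.3 ± 24.7. On the log2 scale the ratio differed by -3.18 between TAA and control mice (9.09-fold lower), by 2.56 between recovery and TAA mice (5.91-fold higher) and by -0.62 between recovery and control mice (1.54-fold lower). Each of these 3 differences had p = 0.1 in a two-sided exact permutation test (0.12 after Benjamini-Hochberg adjustment over 6 ratio tests, these and the 3 of Bhmt to Bhmt2 below), the smallest p that 3 mice against 3 allow. Of the -3.18, a difference of -3.33 lay in Mat1a and -0.14 in Mat2a on the scaled values, whereas of the -0.62 left in recovery, -0.37 lay in Mat1a and 0.26 in Mat2a. This split, unlike the ratio, depends on the scaling. As deposited, Mat1a and Mat2a differed by -2.69 and 0.49 between TAA and control mice, and by -0.29 and 0.33 between recovery and control mice.

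**Figure D2:**
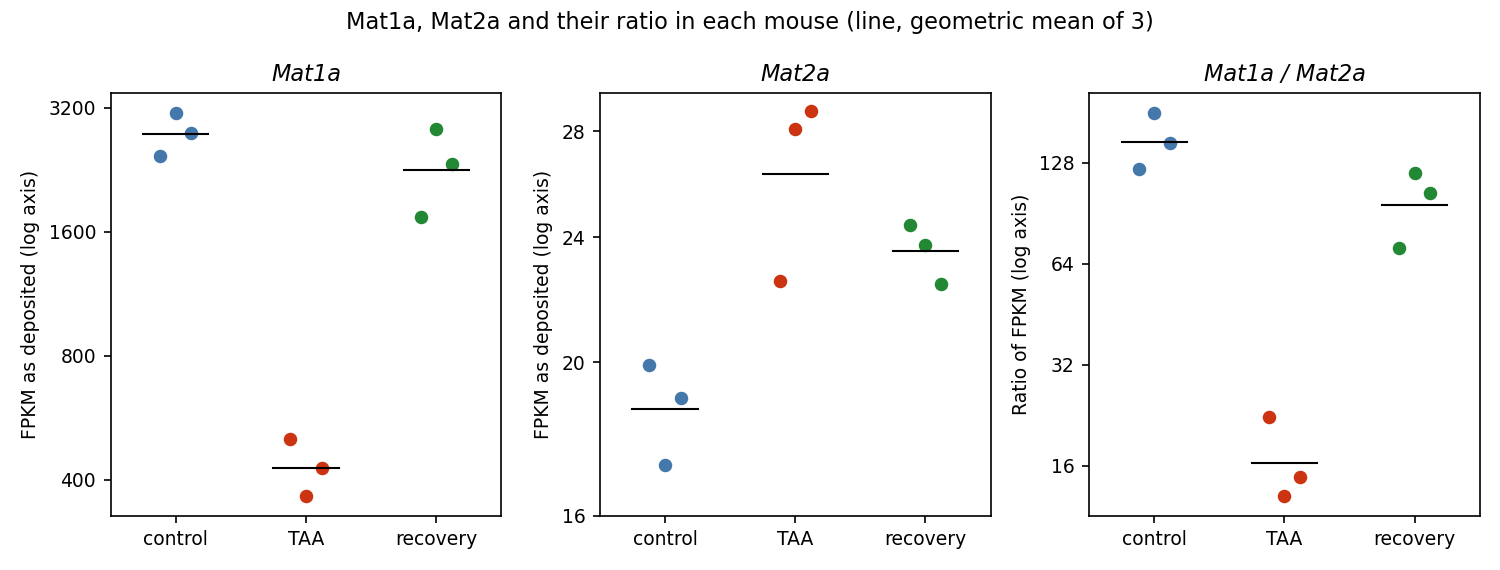
FPKM as deposited of Mat1a and Mat2a and their ratio in each of the 9 mice (log axes; the line is the geometric mean of the 3 mice of a group). The ratio is 122 to 180 in the control mice, 12.96 to 22.3 in the TAA mice and 71.2 to 120 in the recovery mice. Mat2a is higher in the TAA mice on this unscaled axis, and overlaps the control mice once scaled.

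Gnmt and Pemt encode methyltransferases that use S-adenosylmethionine. Gnmt (chr17:46725664-46729168, minus strand) encodes glycine N-methyltransferase, which disposes of excess S-adenosylmethionine. Its scaled FPKM was 1127, 837 and 929 in the control mice, 282, 193 and 195 in the TAA mice and 995, 1024 and 796 in the recovery mice. It fell by 2.12 (standard error 0.18, adjusted p = 7.68e-05) and rose by 2.08 in recovery (adjusted p = 7.26e-05), and recovery and control mice overlapped. Pemt (chr11:59970614-60046489, minus strand) encodes the enzyme that methylates phosphatidylethanolamine to phosphatidylcholine. It had 122, 118 and 116 in the control mice, 85.9, 67.0 and 75.7 in the TAA mice and 125, 102 and 111 in the recovery mice. The TAA mice were below the others by a small margin, with a log2 fold change of -0.64 (adjusted p = 0.00164) that was under the 2-fold limit, was -0.01 with FPKM as deposited (adjusted p = 0.962) and turned to 0.08 with quantile normalization and 0.40 with hepatocyte marker scaling (adjusted p = 0.0111). Against the TAA mice the recovery mice differed by 0.57 (adjusted p = 0.00571), a value that was 0.01 as deposited, -0.07 with quantile normalization and -0.58 with hepatocyte marker scaling (adjusted p = 0.00151).

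Ahcy (ENSMUSG00000027597, chr2:155059310-155074497, minus strand) encodes S-adenosylhomocysteine hydrolase, which splits the product that these methyl transfers leave. Its scaled FPKM was 1167, 1182 and 1194 in the control mice, 172, 141 and 160 in the TAA mice and 1033, 1065 and 889 in the recovery mice. The 3 groups did not overlap. Ahcy fell by 2.91 (standard error 0.11, adjusted p = 3.03e-06) to 13.3% of the control mean and rose by 2.66 in recovery (standard error 0.12, adjusted p = 6.63e-06), and like Mat1a it was called in both comparisons under all 4 scalings. Reads of Ahcy may be shared with Gm4737, a near-identical copy (99.7% identity over 2083 bp), whose mean FPKM as deposited was 250 in the control group. With both summed, the log2 fold changes were -2.99 and 2.81.

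Homocysteine is methylated back to methionine by the products of the neighbouring genes Bhmt (chr13:93616675-93637961), which takes the methyl group from betaine, and Bhmt2 (chr13:93655720-93674302, both on the minus strand), which takes it from S-methylmethionine. Bhmt had a scaled FPKM of 2830, 2044 and 2396 in the control mice, 600, 436 and 473 in the TAA mice and 2509, 4546 and 2546 in the recovery mice. It fell by 2.27 (adjusted p = 4.93e-05) and rose by 2.62 (adjusted p = 1.24e-04), and recovery mouse 2 stood above all of the other mice. Bhmt with its near-identical copy Gm5096 (99.4% identity over 1869 bp) gave -2.27 and 2.63. Bhmt2 had 90.2, 79.7 and 83.3 in the control mice, 41.3, 36.9 and 39.0 in the TAA mice and 80.1, 92.9 and 77.8 in the recovery mice. The TAA mice were apart and the other groups overlapped. Bhmt2 fell by 1.11 (adjusted p = 5.02e-05) and rose by 1.09 (adjusted p = 9.20e-05), but with hepatocyte marker scaling these values were -0.07 and -0.05, the rise turning in sign. The ratio of Bhmt to Bhmt2, which needs no scaling, was 31.4, 25.6 and 28.8 in the control mice, 14.5, 11.8 and 12.1 in the TAA mice and 31.3, 48.9 and 32.7 in the recovery mice. The ratio of the TAA mice was below that of all other mice, by 1.16 on the log2 scale against the control group (difference -1.16, exact permutation p = 0.1), and recovery and control mice overlapped (0.37, exact permutation p = 0.2).

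Transsulfuration begins with cystathionine beta-synthase, encoded by Cbs (chr17:31608894-31637238, minus strand), and ends with cystathionine gamma-lyase, encoded by Cth (chr3:157894248-157925077, minus strand). Cbs had a scaled FPKM of 114, 110 and 115 in the control mice, 41.9, 39.7 and 36.7 in the TAA mice and 113, 123 and 117 in the recovery mice. It fell by 1.52 (standard error 0.08, adjusted p = 1.21e-05) and rose by 1.58 (standard error 0.09, adjusted p = 1.27e-05), with recovery and control mice overlapping on the scaled values. Its TAA value was -0.88 as deposited, -0.94 with quantile normalization and -0.48 with hepatocyte marker scaling, each under the 2-fold limit. The recovery value was 1.02, 1.08 and 0.43, under the limit with the last only. Cth had 493, 304 and 314 in the control mice, 93.0, 117 and 80.7 in the TAA mice and 308, 442 and 298 in the recovery mice. Control mouse 1 and recovery mouse 2 were high within their groups, and the TAA mice were below all others. Cth fell by 1.91 (standard error 0.21, adjusted p = 2.60e-04) and rose by 1.84 (adjusted p = 1.75e-04).

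Shmt1 (chr11:60788104-60811718, minus strand) encodes the cytosolic serine hydroxymethyltransferase, which loads methylene groups from serine onto folate. Its scaled FPKM was 69.9, 66.4 and 61.0 in the control mice, 34.6, 26.4 and 30.2 in the TAA mice and 48.5, 45.1 and 45.3 in the recovery mice. The recovery mice lay between the other groups and overlapped neither on the scaled values. Shmt1 fell by 1.12 in the TAA group (adjusted p = 1.76e-04), a value that was -0.08 with hepatocyte marker scaling (adjusted p = 0.575). Against the TAA group the recovery group differed by 0.61 (adjusted p = 0.00264), which is under the 2-fold limit and was 0.05 as deposited (adjusted p = 0.674) and -0.53 with hepatocyte marker scaling (adjusted p = 0.00200). The exons share 184 bp with Smcr8 on the other strand (4.74% of the exonic length).

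In the control group the order of the levels ran from Mat1a (mean 3248 scaled FPKM) through Bhmt (2423), Ahcy (1181), Gnmt (964), Cth (370), Pemt (118), Cbs (113), Bhmt2 (84.4) and Shmt1 (65.8) to Mat2a (22.0), and no neighbours in this order overlapped between mice. In the TAA group Bhmt (503) was above Mat1a (325), which overlapped Gnmt (223). The pairs Cth and Pemt (96.9 and 76.2) and Cbs and Bhmt2 (39.4 and 39.0) overlapped as well. In the recovery group Bhmt (3200) and Mat1a (2562) overlapped, as did Ahcy and Gnmt and Cbs and Pemt. Within single mice, Mat1a was above Gnmt and Cth above Pemt in every TAA mouse, and Ahcy above Gnmt in every recovery mouse. The order within the other overlapping pairs differed between mice. Mat2a was last in all 3 groups.

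In the recovery group against the control group, 0 of the 10 were called in limma, beside 0.993% of all tested genes, and at an unadjusted p under 0.05 there were 2 (Mat2a and Shmt1). Only Shmt1 had an adjusted p under 0.05 (2.70% of all tested genes), with a log2 fold change of -0.51 and a 95% interval of -0.68 to -0.33 (adjusted p = 0.0310; up to 0.116 with 1 mouse left out). The share of its TAA change left in recovery, a ratio of log2 fold changes, depended on the scaling. It was 45.2% with the median-of-ratios scaling (39.2% to 48.4% in single mice), 67.6% with quantile normalization and 89.0% as deposited, and with hepatocyte marker scaling there was hardly a TAA change to divide by (-0.08). For Mat1a 0.776% to 22.3% was left in single mice (group values of 9.98% to 20.6% over the 4 scalings), with a log2 fold change of -0.37 and an interval of -0.88 to 0.15. For Ahcy it was 8.59% (5.11% to 14.1% in single mice, 2.98% to 18.9% over the scalings), with -0.25 and an interval of -0.51 to 0.01. Ahcy summed with its copy Gm4737 gave -0.18 (scaled FPKM of 1310 ± 176 in recovery and 1474 ± 23.4 in control mice, mean ± SD). On the scaled values the recovery and control mice overlapped for 7 genes. They did not for Ahcy, Shmt1 (both lower in recovery) and Mat2a (higher in recovery, 0.25, interval 0.04 to 0.46, adjusted p = 0.153). As deposited, Cbs did not overlap either (higher in recovery). Shares of all tested genes were not computed for this overlap or for an unadjusted p, so these counts are descriptions. For Bhmt the interval of -0.30 to 1.01 still held a 2-fold difference, and for the other 9 it did not.

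**Figure D3:**
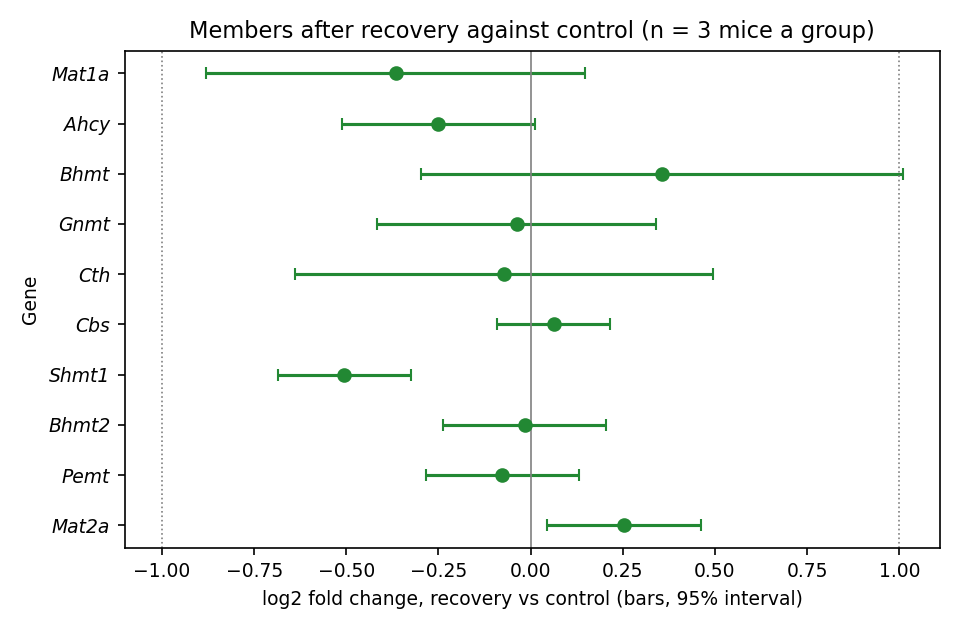
Log2 fold change (scaled FPKM) of the recovery group against the control group for the 10 genes, with 95% intervals from limma (n = 3 mice a group). Dotted lines mark a fold change of 2. The interval of Shmt1 lies below 0, from -0.68 to -0.33, and that of Bhmt reaches 1.01. Of the estimates near 0, those of Gnmt, Bhmt2, Cth, Cbs and Pemt changed sign with the scaling.

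Scaling decided how many of the genes passed the 2-fold limit. In the TAA group, 5 of the 10 were called lower with FPKM as deposited (Mat1a, Gnmt, Ahcy, Bhmt and Cth), in place of 8, beside 2.99% of all tested genes. With quantile normalization there were 3 (Mat1a, Ahcy and Cth; 9.30% of all tested genes), and 4 when FPKM were divided by the geometric mean of 8 hepatocyte markers, a setting chosen after seeing the data (Mat1a, Gnmt, Ahcy and Bhmt; 1.83%). In the recovery group 6 were called higher as deposited (all of the 7 but Bhmt2), 5 with quantile normalization (all but Gnmt and Bhmt2) and 3 with hepatocyte marker scaling (Mat1a, Ahcy and Bhmt), beside 2.90%, 8.31% and 1.35% of all tested genes. Over all called genes of the TAA group, 67.9% were higher with the median-of-ratios scaling, 91.2% as deposited, 54.9% with quantile normalization and 96.5% with hepatocyte marker scaling. The order of the fold changes changed less. Mat1a and Ahcy had the largest falls under each of the 4 scalings, and Mat2a and Pemt had the highest values under each.

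**Figure D4:**
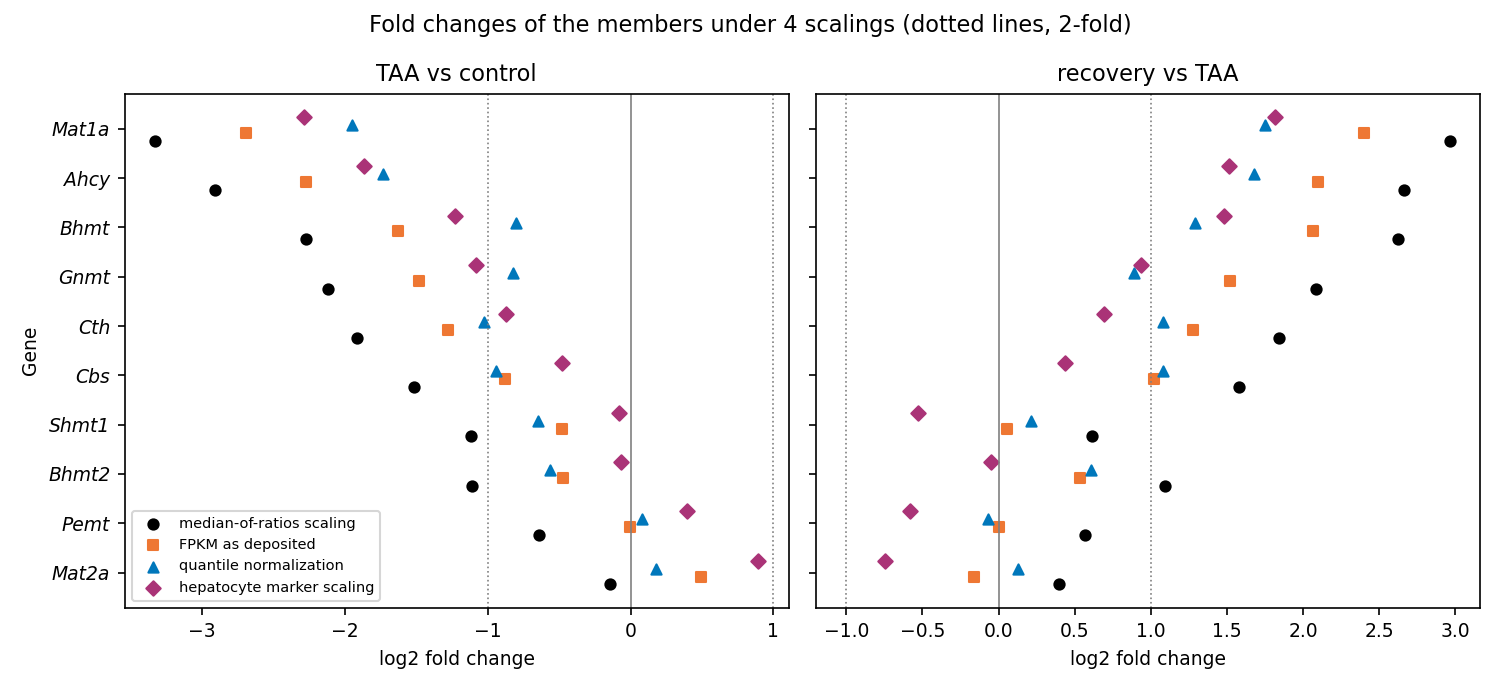
Log2 fold changes of the 10 genes under 4 scalings, for the TAA group against the control group and the recovery group against the TAA group. Dotted lines mark a fold change of 2. Mat1a and Ahcy stay beyond the lines under all 4, from -3.33 to -1.95 and from -2.91 to -1.73 in the TAA group, and Mat2a and Pemt change sign in both comparisons, as Bhmt2 and Shmt1 do in recovery.

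Marker genes of liver cell types differed between the same libraries. Of 8 hepatocyte markers, all above 0 in every library, 5 fell in the TAA group (median log2 fold change -1.19), and their summed scaled FPKM was 38897 to 43594 in the control mice, 22914 to 30444 in the TAA mice and 48255 to 50783 in the recovery mice. Albumin (Alb) made up most of these sums, with means of 28326, 20463 and 35140 in the control, TAA and recovery groups. Among the 8, Alb had -0.48 (adjusted p = 0.188) and fetuin-A (Ahsg) -0.01 (adjusted p = 0.959), and Serpina1c fell by 1.79. All 5 cholangiocyte markers rose (sums of 15.7 to 20.9, 295 to 442 and 27.9 to 38.4 in the control, TAA and recovery mice), as did all 7 markers of stellate cells and myofibroblasts (15.6 to 16.5, 192 to 288 and 15.2 to 25.5) and all 4 cell cycle markers (0.708 to 1.12, 21.5 to 29.0 and 2.21 to 3.62). Of 6 macrophage and lymphocyte markers 1 rose, and of 4 endothelial markers 0 were called (limma; 1 was lower at an unadjusted p under 0.05). Their part in the results was not tested. With hepatocyte marker scaling, 4 of the 8 members that fell in the TAA group were called lower, and 4 (Bhmt2, Cbs, Cth and Shmt1) were not called.

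The other 75 genes of the pathway were taken from 9 lists, and 74 were tested. In the TAA group 9 of them rose and 16 fell (median log2 fold change -0.41), beside 17.0% and 8.02% of all tested genes. In the recovery group 17 rose and 8 fell against the TAA group, beside 7.12% and 14.3%. These counts moved with the scaling, as did those over all genes. In the TAA group they were 20 and 7 with FPKM as deposited (31.1% and 2.99% of all tested genes), 10 and 11 with quantile normalization (11.3% and 9.30%) and 31 and 5 with hepatocyte marker scaling (50.4% and 1.83%). In recovery they were 8 and 19 as deposited (2.90% and 26.5%), 13 and 9 with quantile normalization (8.31% and 9.98%) and 1 and 34 with hepatocyte marker scaling (1.35% and 56.6%). The sign in the TAA group held under all 4 scalings for each called gene named in the lists, but the size did not. With hepatocyte marker scaling, of the 16 that fell only Agxt, Cdo1, Chpt1, Nnmt and Suox were called lower, and Aldh7a1 (-0.07, adjusted p = 0.659), Chdh (-0.06, adjusted p = 0.657), As3mt (-0.07, adjusted p = 0.629) and Sdsl (-0.18, adjusted p = 0.320) were near 0.

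Around the step that makes S-adenosylmethionine, 0 of 4 genes were called in any comparison (limma), with 2 lower at an unadjusted p under 0.05 in the TAA group. Mat2b, the regulatory subunit that pairs with the product of Mat2a, had a log2 fold change of -0.41 in the TAA group (adjusted p = 0.0103). Mettl16, which methylates the Mat2a transcript, had 0.20 (adjusted p = 0.287), and the RNA-binding proteins Elavl1 and Hnrnpd had -0.12 (adjusted p = 0.512) and -0.41 (adjusted p = 0.0120). Of 7 genes of remethylation and betaine supply, 4 fell. Dmgdh (-1.73) and Sardh (-1.62) degrade dimethylglycine and sarcosine, Aldh7a1 (-1.11) oxidises betaine aldehyde, and the choline dehydrogenase Chdh (-1.10, named after its value was seen) makes it. Of 4 genes of S-adenosylhomocysteine and adenosine, Adk, the adenosine kinase, fell by 1.28 (adjusted p = 5.57e-05).

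Among 11 other methyltransferases, 2 fell and 1 rose. Nnmt, which methylates nicotinamide, fell by 2.22 (adjusted p = 2.83e-06), from 162, 173 and 175 in the control mice to 38.2, 35.6 and 35.5 in the TAA mice, and was at 82.7, 138 and 121 in the recovery mice. As3mt, which methylates arsenic, fell by 1.11, and Dnmt1, the maintenance DNA methyltransferase, rose by 1.36 (adjusted p = 9.77e-05). In the choline route to phosphatidylcholine, which runs beside Pemt, Chpt1 fell by 2.15 (adjusted p = 1.41e-05) and the choline kinase Chkb by 1.45, while the other choline kinase Chka rose by 1.43 (adjusted p = 2.94e-04); 6 genes were tested. Of 10 tested folate enzymes, Ftcd, which links histidine breakdown to folate, fell by 1.29 and Tyms, the thymidylate synthase, rose by 1.17.

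Of 9 genes of serine and glycine, 3 rose and 3 fell. Those that rose encode the enzymes of serine synthesis. Phgdh had a scaled FPKM of 0.0368, 0.0695 and 0.0963 in the control mice, 1.53, 1.63 and 1.42 in the TAA mice and 0.0322, 0.0713 and 0 in the recovery mice, a rise of 3.29 (adjusted p = 2.05e-05) at levels low enough for the added 0.1 to shrink it. Psat1 rose by 1.96 and Psph by 1.39, and all 3 fell again in recovery. Agxt, the peroxisomal aminotransferase of glyoxylate, fell by 2.27 (adjusted p = 3.99e-06), Amt of the glycine cleavage system by 1.28 and the serine dehydratase-like gene Sdsl by 1.201. In recovery Agxt was at 96.4, 114 and 94.8 scaled FPKM, below the control values of 162, 152 and 145 (log2 fold change -0.59, adjusted p = 0.0349, under the 2-fold limit). Gldc, of the glycine cleavage system and named after its value was seen, was at 93.4, 89.9 and 79.4 in recovery, above the control values of 40.6, 52.7 and 49.3 (0.89, adjusted p = 0.0219, also under the limit). With 1 mouse left out the adjusted p reached 0.118 for Agxt and 0.102 for Gldc.

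Of 12 genes of cysteine, taurine, glutathione and sulfide, 3 rose and 3 fell. Cdo1, the cysteine dioxygenase, had a scaled FPKM of 465, 569 and 540 in the control mice, 120, 110 and 105 in the TAA mice and 579, 764 and 648 in the recovery mice. It fell by 2.23 (adjusted p = 8.17e-06) and rose by 2.56. The sulfite oxidase Suox fell by 2.21 and Csad, of taurine synthesis, by 1.81 (adjusted p = 0.00382). Slc7a11, the cystine transporter, was at 0.0189, 0.0140 and 0.0150 in the control mice, 5.68, 16.3 and 10.8 in the TAA mice and 0.0487, 0.127 and 0.106 in the recovery mice. The TAA mice were apart from all others, and the fitted rise of 6.45 (adjusted p = 1.21e-05) depends on the added 0.1. Gclc, the catalytic subunit of the first enzyme of glutathione synthesis, rose by 1.11 (adjusted p = 0.00180), and Ggt1, which splits extracellular glutathione, was listed at 0 in all control mice and at 0.378, 0.425 and 0.568 in the TAA mice. Of 11 genes of polyamines and methionine salvage, 0 were called in the TAA group (limma), with log2 fold changes of -0.88 to 0.87, although 9 had an adjusted p under 0.05, 6 of them higher and 3 lower.

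**Figure D5:**
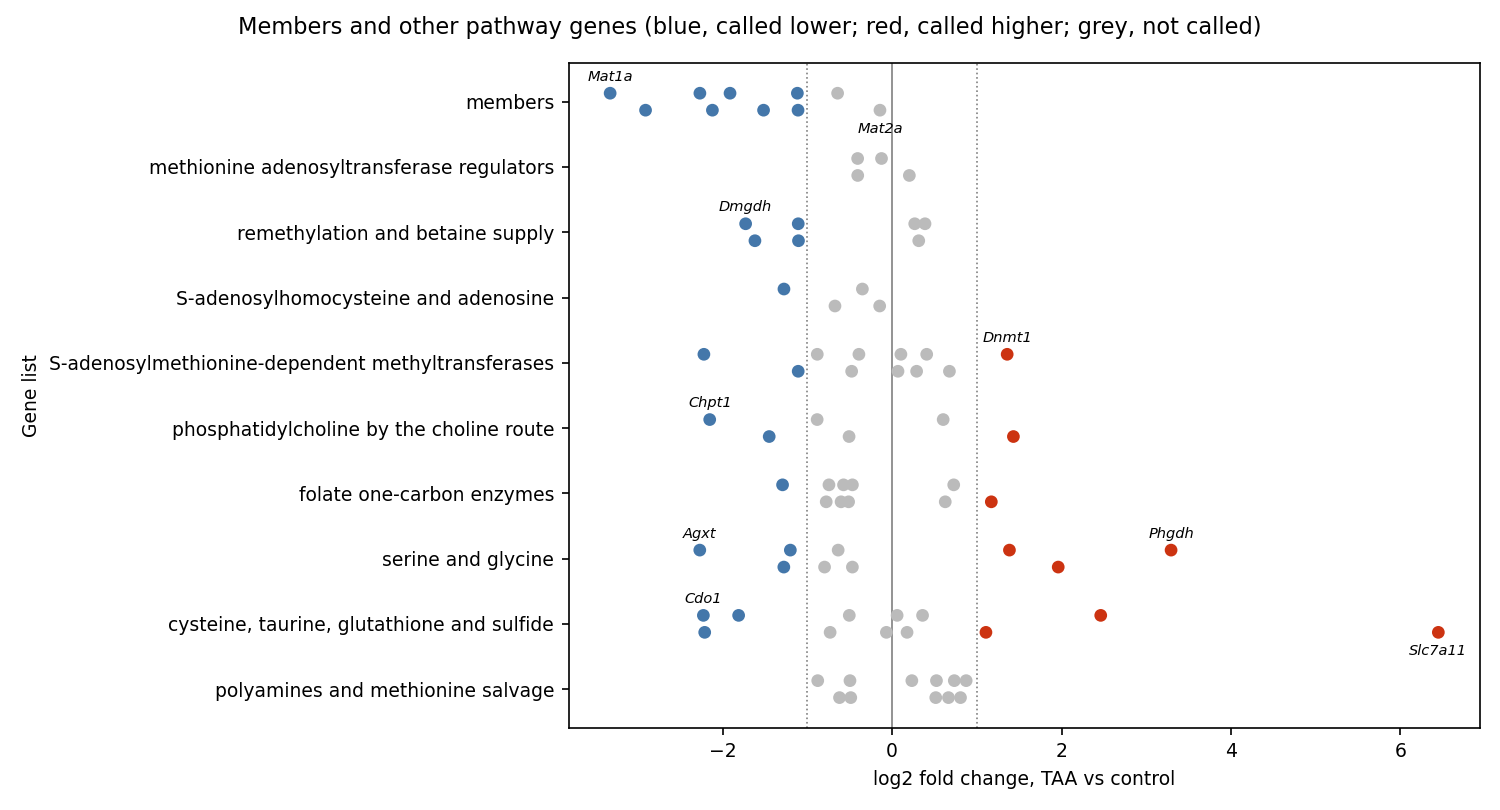
Log2 fold change (scaled FPKM) of the TAA group against the control group for the 10 members and the 74 tested genes of 9 pathway lists, 1 point per gene. Red points were called higher, blue points lower and grey points not called, and dotted lines mark a fold change of 2. The members run from -3.33 (Mat1a) to -0.14 (Mat2a, which is above 0 under the other 3 scalings), and Slc7a11 reaches 6.45.

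Across the 9 libraries, which include the TAA libraries that stand apart in many genes, the 8 members other than Mat2a had a Pearson's r with Mat1a of 0.908 to 0.991 in log2(scaled FPKM + 0.1), and Mat2a had 0.546. Outside the members, the genes most like Mat1a were Gstz1 (0.998), Acadm, Ccni, Asl and Crp (0.995 to 0.996). Those most like Mat2a were Mrpl20 (0.977), Prxl2b, Gigyf2, Zfp622 and Ik (0.944 to 0.972). All 9 libraries share 1 scaling, and these values are descriptions. Each r is given for the median-of-ratios scaling only. With FPKM as deposited, Mat1a and Mat2a had log2 fold changes of opposite sign, -2.69 and 0.49 between TAA and control mice. Between recovery and TAA mice they were 2.40 and -0.16. The r of Mat2a with Mat1a, its sign included, and the genes most like Mat2a may therefore depend on the scaling.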

How the data were processed

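Per the submitters' processing notes, the authors mapped reads with HISAT2 2.2.1 (mm10) and counted fragments on genes with featureCounts 1.5.0-p3. They deposited FPKM, with 1 column per mouse and no scaling between libraries, and 0 columns were left unused. Libraries were made with a kit that does not mark strand, and the strand setting of the counting was not given in the sources used here. Between 55.3% and 67.9% of low values were whole fragments (within 0.08, 16% by chance) at the estimated depth, so counts were not recovered and no count model was used.

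For scaling, each library was divided by its median-of-ratios factor, taken over the 14005 genes above 0 in all 9 libraries. The test was limma 3.58.1 in R 4.3.3 (lmFit, trended eBayes) on log2(scaled FPKM + 0.1), for genes whose mean FPKM reached 0.1, in the 6 libraries of each comparison. Ratios within a mouse were compared by exact permutation (scipy 1.17.1). Copies were sought with BLAST 2.17.0 (at least 95% identity over 500 bp). Loci were those of the deposited table, and exons came from GENCODE M21. The steps were tested on simulated data. For limma, far fewer genes were set to change there than were called here, so that test cannot judge the choice of scaling. The members, gene lists and tests were chosen with earlier results of these data known. Named are all members, up to 3 called genes with the largest rise and 3 with the largest fall per list in the TAA group, genes called in recovery against control, and the 5 genes most like Mat1a and Mat2a; others are said to be named after their values were seen. Some results that fall under this rule are not reported here. Alternatives to the pseudocount, filter, scaling, samples in a fit, moderation, block and set of mice were tried.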

Additional observations from a re-analysis of the deposited data

How the results depend on the processing

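With FPKM as deposited, quantile normalization and hepatocyte marker scaling (the latter chosen after seeing the data), 5, 3 and 4 members were called lower in the TAA group in place of 8 (2.99%, 9.30% and 1.83% of all tested genes in place of 8.02%), and hepatocyte marker scaling left 3 called higher in recovery in place of 7 (1.35% in place of 7.12%). Pathway genes called higher in the TAA group went from 9 to 20 as deposited and 31 with hepatocyte marker scaling, and those called lower from 16 to 7 and 5. In recovery against TAA, those called higher went from 17 to 8 and 1, and those called lower from 8 to 19 and 34, and to 2 with a pseudocount of 1. The single pathway gene called higher in recovery against control was not called (0) without the filter, without the trend or with the replicate block. It was also not called in any fit with 1 mouse left out. In those fits 0 to 1 pathway genes were called higher, and any such gene was another one. Of the signs that turned, Mat2a in the TAA group went to 0.49, 0.18 and 0.90 with FPKM as deposited, quantile normalization and hepatocyte marker scaling, and Pemt to 0.084 and 0.40 with the latter pair. In recovery against TAA, Mat2a went to -0.16 as deposited, Pemt to -0.069 with quantile normalization, and Mat2a, Bhmt2, Pemt and Shmt1 to -0.74, -0.051, -0.58 and -0.53 with hepatocyte marker scaling. In recovery against control, where these values were near 0, Gnmt went to 0.039 and 0.065, Bhmt2 to 0.060 and 0.045 and Cth to 0.0047 and 0.054 as deposited and with quantile normalization, Pemt to 0.015 with quantile normalization and Cbs to -0.041 with hepatocyte marker scaling. The cause was not tested beyond the scaling itself. With each mouse left out in turn, 8 members stayed called lower in the TAA group and 7 higher in recovery. Shares of all tested genes were computed for the 4 scalings only, so counts under the other settings stand without one. In recovery against control, Gnmt ranged from -0.13 to 0.080, Bhmt2 from -0.095 to 0.033 and Cth from -0.25 to 0.15. The Mat1a to Mat2a log2 ratio ranged from -3.41 to -3.02 (TAA against control), 2.40 to 2.79 (recovery against TAA) and -0.78 to -0.40 (recovery against control). Same-numbered mice showed little shared deviation (correlations of -0.07 to 0.02, -0.04 to -0.02 and -0.02 to 0.12). No pairing by number was seen, and 3 mice a group cannot exclude one. With the replicate block, 8 members were called lower in the TAA group and 7 higher in recovery, the adjusted p of Shmt1 in recovery against control went from 0.0310 to 0.0656, and the Mat1a to Mat2a differences of -3.18, 2.56 and -0.62 had an exact p of 0.25, the smallest that 3 pairs allow. Depth does not limit the members, which had at least 2394 estimated fragments in any library, but 3 mice a group limit the intervals.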
